A study of Homo sapiens with 8 samples.

Results

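The 37 genes described here lie near each other on the long arm of chromosome 15, at 15q25-q26, from SH3GL3 to IDH2, with some unlisted genes between them. They were read in DAOY cells, an established human medulloblastoma line, and were selected on 2 grounds, their position and their deviations per array, after single stable lines had been seen to shift along this stretch in the same data. The question asked of them was whether a single array departs from the others along the whole row. On the array, 36 of the 37 had a probe (45 of 22184 probes in all), MESP2 being the exception. A probe detected on at least 2 arrays was found for 28 of the 37, out of 12162 genes in the whole series. The other 8, ADAMTSL3, ALPK3, AGBL1, ACAN, RLBP1, PLIN1, WDR93 and ZNF710, were detected on at most 1 array and have no level here. Chromosome and gene order were taken from the GRCh38.p14 gene table of RefSeq, since the files carry no positions.

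The samples were 5 numbered DAOY lines stably carrying the plasmid pHM6-MXD3, 2 numbered lines carrying pHM6 without an insert (the vector lines) and 1 sample of parental DAOY cells with no transgene. Per the labels, 800 µg/ml G418 was in the medium of the stable lines. It is not stated whether a numbered line grew from 1 cell or from a pool, or which promoter drives the insert. Each line gave RNA for 1 Illumina bead array, so the spread between lines also holds the spread between arrays.

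Neighbouring genes on a chromosome usually have unrelated jobs and separate promoters, but they share the copy number of the DNA they sit on and often their chromatin surroundings. Cancer cell lines carry rearranged chromosomes, and cells of 1 line can differ in them. The arrays read RNA, and DNA copy number was not analysed here. MXD3 is a partner of MAX, and the MAX dimers of MYC and MXD proteins bind the E-box, CACGTG, a motif that reads the same on both strands.

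Detection p-values lay below 0.05 for 13432 to 14199 probes per array, the fewest on MXD3 line 2. Levels below are normalized log2 intensities, given in the order of the line numbers. MXD3 itself read 7.47, 7.22, 6.98, 8.08 and 6.18 across the numbered MXD3 lines, 6.93 and 6.71 with vector alone and 6.59 in parental DAOY, so line 2 was neither the highest nor the lowest. MXD3 line 5 read below the vector and parental arrays and line 3 close to vector line 1. On the probe that stood for MXD3, a raised level was thus not seen in every MXD3 line. Whether that probe reads the inserted sequence was not examined, so the level of the transgene is not known from it. Of 14 markers of medulloblastoma and neural precursors, 9 passed the detection filter. NES, ZIC1, ATOH1, NEUROD1 and SYP did not. The summed level of those 9 was 16.08 on line 2 and 15.97 to 16.12 over all arrays. Fibroblast markers (7 of 7 passed) summed to 14.28 on line 2 against 14.19 to 14.65, epithelial markers (4 of 5) to 14.70 against 14.66 to 15.36, and blood and endothelial markers (2 of 7) to 10.85, the lowest of a range up to 12.02. CD14, PECAM1, CDH5, VWF and HBB did not pass, and the part of these differences in the results on line 2 was not tested.

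Promoter windows of RefSeq (GRCh38.p14), 250 bases before to 50 after each gene start, were available for 32 of the 37 genes in 44 windows. An E-box occurred in 3 of the 44 windows (6.82%), those of PDE8A, AEN and ISG20, against 7.26% of all 35116 windows. The matches of PDE8A and ISG20 lie before the gene start and are shown with the E-box in capitals, 5′ to 3′ on the plus strand. The PDE8A stretch is chr15:84980253-84980312, with the motif starting 187 bases before the gene start. That of ISG20 is chr15:88638875-88638934, with the motif starting 114 bases before it.
PDE8A: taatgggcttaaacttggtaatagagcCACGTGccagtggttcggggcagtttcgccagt
ISG20: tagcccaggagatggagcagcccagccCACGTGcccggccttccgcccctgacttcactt
The match of AEN lies after its start. These are matches of letters only, and nothing about binding follows from them.

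One array stood apart along the row, that of MXD3 line 2. Here and below, the deviation of a gene on an array is its normalized log2 intensity minus the median of the other 7 arrays. On MXD3 line 2 the median deviation of the 28 genes was -0.66 (quartiles -0.89 and -0.29), a level 1.58-fold lower. Deviations were below 0 for 25 of the 28, against 6127 of the 12134 genes off the list. They were at or below -0.5 for 19 of the 28 (67.9%), against 8.58% of all genes on that array. These deviations are what the genes were listed for, so they are described and not tested. In bulk RNA, a lower level in every cell and a loss from some of the cells cannot be told apart.

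**Figure D1:**
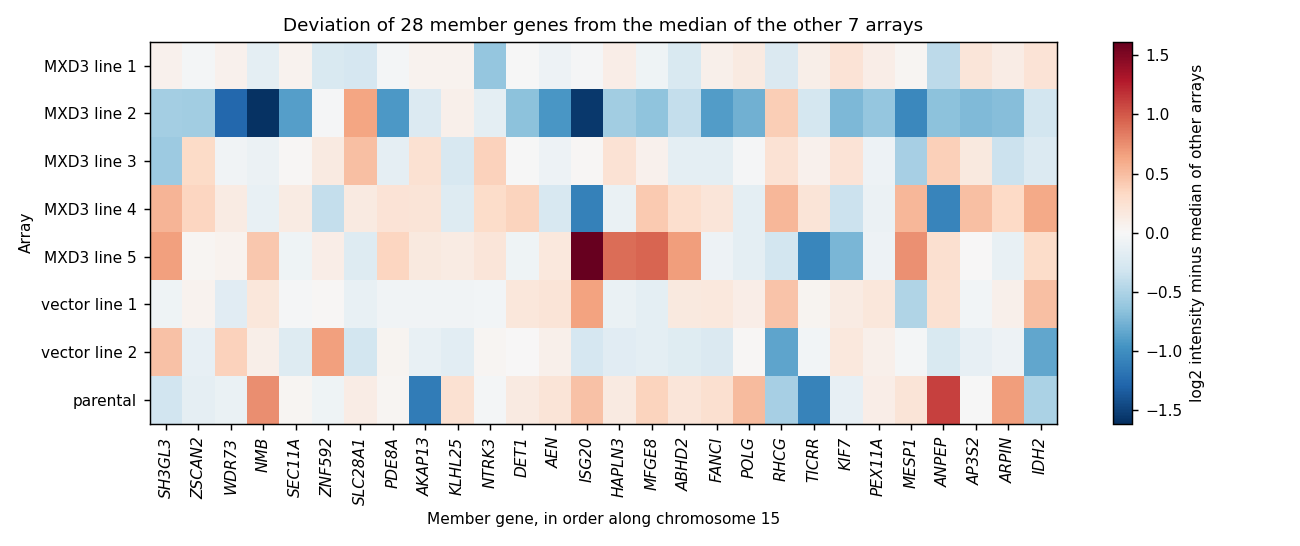
Deviation of each of the 28 measured genes (columns, in chromosomal order) on each of the 8 arrays (rows), as log2 intensity minus the median of the other 7 arrays, blue for lower and red for higher. MXD3 line 2 is blue in 25 of 28 columns, with NMB and ISG20 the darkest, while the other rows mix both colours.

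No other array had such a shift. The median deviation was 0.04, 0.0011, 0.20 and 0.12 on MXD3 lines 1, 3, 4 and 5, 0.05 and -0.10 on vector lines 1 and 2, and 0.12 on the parental array. Fewer genes lay past 0.5 on those arrays, given here with the share of all genes in brackets. On MXD3 line 1, 1 of the 28 was lower (4.52%) and 0 higher (5.07%). On line 3, 2 were lower (5.76%) and 0 higher (5.1%). MXD3 line 4 had 2 lower (7.78%) and 4 higher (6.59%), and line 5 had 2 lower (8.67%) and 6 higher (9.32%). The first vector line had 0 lower (4.69%) and 1 higher (6.64%), the other 2 lower (8.76%) and 1 higher (7.35%). Parental DAOY had 4 lower (11.6%) and 4 higher (9%). These counts lay between 0 and 6 of the 28, against 19 lower and 1 higher (7.3% of all genes) on line 2. MXD3 line 2 gave the lowest of the 8 readings for 17 of the 28 genes, against 13.3% of all genes. Over the 12134 genes off the list, the median deviation on MXD3 line 2 was -0.0042 (quartiles -0.21 and 0.20). Quantile normalization holds the middle of all genes near 0 on every array, so the shift is relative to the other genes of line 2.

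**Figure D2:**
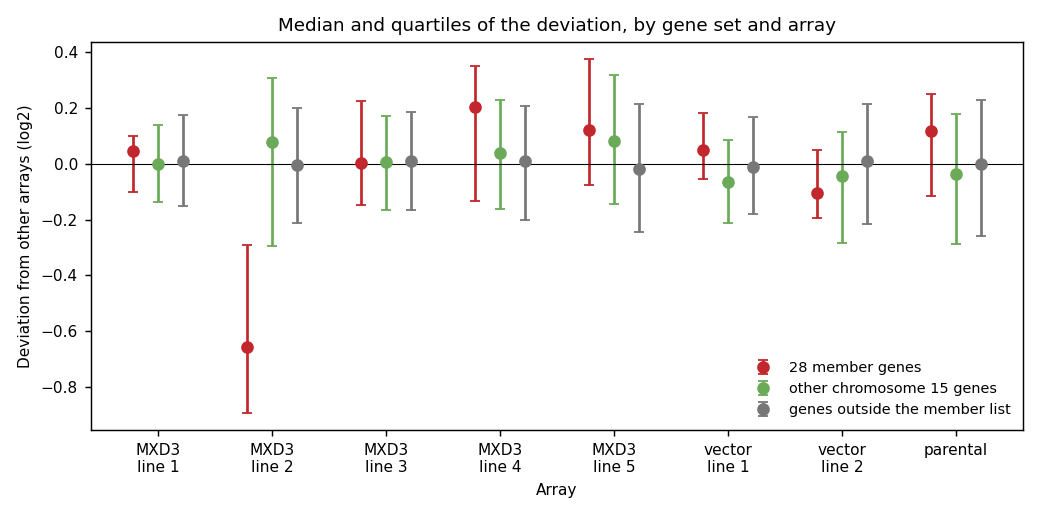
Median (points) and quartiles (bars) of the deviation on each array, in log2 units, for the 28 listed genes, the 351 other measured chromosome 15 genes outside the segment and the 12134 genes off the list. Only the point of the listed genes on MXD3 line 2, at -0.66, lies further than 0.21 from 0.

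Genes of genome maintenance were among the lower ones on MXD3 line 2. FANCI, whose product pairs with FANCD2 in the repair of DNA crosslinks, read 10.02, 9.12, 9.87, 10.14 and 9.94 across the numbered MXD3 lines, 10.11 and 9.79 with vector alone and 10.20 in parental DAOY. POLG, the catalytic subunit of the mitochondrial DNA polymerase, read 11.11, 10.21, 10.97, 10.83 and 10.84 across the numbered MXD3 lines, 11.08 and 10.99 with vector alone and 11.48 in parental DAOY. AEN, a nuclease gene induced by p53, read 10.71, 9.85, 10.71, 10.54 and 10.88 across the numbered MXD3 lines, 10.92 and 10.79 with vector alone and 10.92 in parental DAOY. In all 3 genes line 2 lay below every other array, by 0.90, 0.78 and 0.94 from the median of the others. TICRR, needed to start DNA replication, was at -0.29 on line 2 and lower on 2 other arrays, MXD3 line 5 (-1.05) and the parental array (-1.08).

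Genes of membrane traffic and the cytoskeleton had 5 of their 6 measured members at or below -0.5 on line 2, against 8.58% of all genes. SEC11A, a catalytic subunit of the signal peptidase, was the brightest of the row and read 12.42, 11.49, 12.38, 12.48 and 12.31 across the numbered MXD3 lines, 12.36 and 12.17 with vector alone and 12.39 in parental DAOY. The other 7 arrays spanned 12.17 to 12.48, so the gap of line 2 was wider than their whole range. AP3S2, a subunit of the AP-3 sorting complex, read 9.00, 8.10, 8.96, 9.29 and 8.82 across the numbered MXD3 lines, 8.77 and 8.68 with vector alone and 8.81 in parental DAOY. ARPIN, an inhibitor of the Arp2/3 complex, read 7.55, 6.84, 7.17, 7.75 and 7.40 across the numbered MXD3 lines, 7.52 and 7.43 with vector alone and 8.11 in parental DAOY. Line 2 was the lowest array for both. KIF7, a kinesin of the primary cilium that acts in Hedgehog signalling, read 7.98, 7.17, 7.98, 7.54 and 7.16 across the numbered MXD3 lines, 7.89 and 7.93 with vector alone and 7.76 in parental DAOY, so MXD3 line 5 was as low as line 2. SH3GL3, an endophilin gene at the near end of the row, was at -0.54 on line 2 and -0.58 on MXD3 line 3. AKAP13, an anchoring protein for protein kinase A, was at -0.22 on line 2, and its further probe, detected on 6 arrays, was at -0.56.

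Secreted and matrix genes included the member furthest down. NMB encodes neuromedin B, a bombesin-like peptide, and read 7.30, 5.86, 7.36, 7.33 and 7.80 across the numbered MXD3 lines, 7.54 and 7.46 with vector alone and 8.10 in parental DAOY, a level 3.02-fold lower on line 2 than the median of the others. MFGE8, a secreted glycoprotein that bridges phagocytes to dying cells, was at -0.65 on line 2 and at 0.94 on MXD3 line 5. HAPLN3, a link protein gene, was at -0.56 on line 2 and was detected on 2 arrays only. ISG20, an interferon-induced exonuclease, also had a deviation beyond -1.5 on line 2. It read 8.88, 7.33, 8.89, 7.79 and 10.49 across the numbered MXD3 lines, 9.52 and 8.62 with vector alone and 9.35 in parental DAOY. Its readings were spread widely, with line 4 at -1.09 and line 5 at 1.61, so line 2 was the lowest of a broad range.

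Genes of signalling, protein turnover and transcription followed. WDR73, a WD repeat protein gene next to NMB, read 8.23, 6.95, 8.16, 8.29 and 8.22 across the numbered MXD3 lines, 8.04 and 8.52 with vector alone and 8.10 in parental DAOY. PDE8A, a phosphodiesterase that degrades cyclic AMP, read 7.60, 6.70, 7.48, 7.82 and 7.95 across the numbered MXD3 lines, 7.58 and 7.64 with vector alone and 7.63 in parental DAOY. Both had their other 7 readings within 0.5 of each other, and line 2 fell by 1.26 and 0.93 from their medians. DET1, which works with the ubiquitin ligase COP1, read 7.99, 7.33, 7.98, 8.35 and 7.93 across the numbered MXD3 lines, 8.17 and 7.99 with vector alone and 8.13 in parental DAOY. MESP1, a basic helix-loop-helix factor of early mesoderm, read 7.78, 6.74, 7.25, 8.28 and 8.48 across the numbered MXD3 lines, 7.30 and 7.74 with vector alone and 7.95 in parental DAOY. Line 2 was again the lowest array for both. ANPEP, the membrane aminopeptidase N, read 8.56, 8.32, 9.12, 7.92 and 9.00 across the numbered MXD3 lines, 8.98 and 8.73 with vector alone and 9.83 in parental DAOY, so MXD3 line 4 was lower than line 2. ZSCAN2, a zinc finger gene, had 3 probes that passed, at -0.56, -0.48 and -0.76 on line 2.

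**Figure D3:**
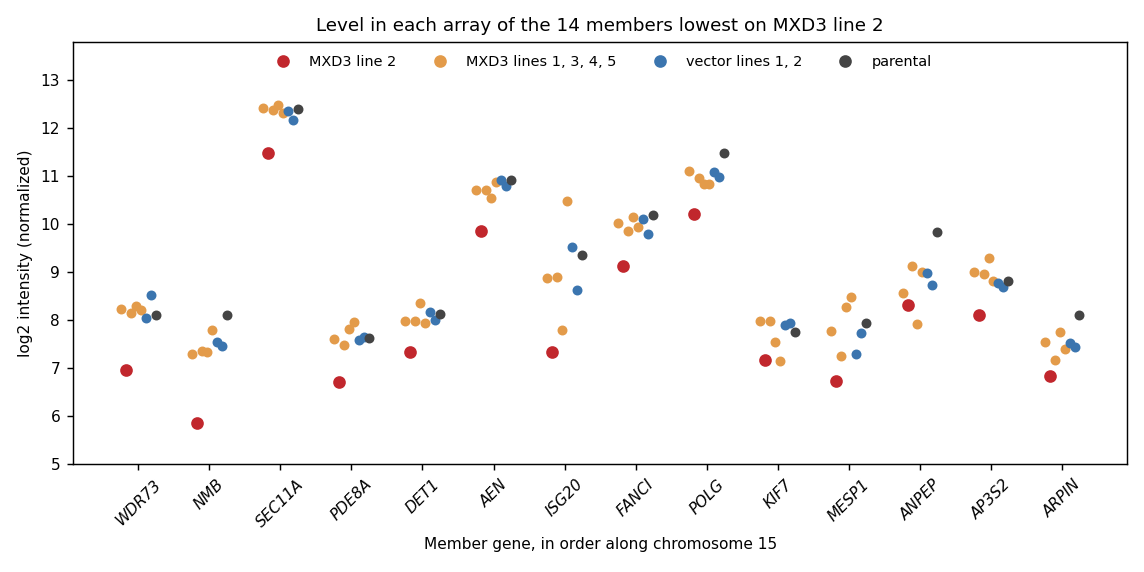
Normalized log2 intensity in each of the 8 arrays for the 14 listed genes with the largest deviations below 0 on MXD3 line 2, in chromosomal order, each point 1 array. The point of MXD3 line 2 is the lowest of the 8 for every gene except KIF7, where MXD3 line 5 is lower, and ANPEP, where MXD3 line 4 is lower.

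Of the remaining genes, PEX11A, of peroxisome division, was at -0.62 on line 2, where it had its lowest reading. The others did not reach -0.5 there. ABHD2, a lipase gene, was at -0.38 and IDH2, the mitochondrial NADP-dependent isocitrate dehydrogenase, at -0.29. NTRK3, the neurotrophin receptor TrkC, was at -0.16 and ZNF592, a zinc finger gene, at -0.01. KLHL25, an adaptor of CUL3 ubiquitin ligases, was at 0.09, RHCG, an ammonia transporter, at 0.40 and SLC28A1, a nucleoside transporter, at 0.63. RHCG was detected on 3 arrays, and SLC28A1 read between 6.05 and 6.85, near the dim end. For the 24 genes detected on all 8 arrays, the median deviation on line 2 was -0.67. At or below -0.5 were 18 of them (75%), against 8.58% of all 12162 genes. That share was not taken over only the genes detected on all 8 arrays.

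Partners of these genes elsewhere in the genome had deviations around 0 on line 2. Of 49 listed partners and paralogues, 42 passed the detection filter. Their median deviation on line 2 was 0.05 (quartiles -0.17 and 0.17). At or below -0.5 were 3 of the 42 (7.14%), against 8.58% of all genes on line 2. At or above 0.5 were 3 (7.14%), against 7.3%, so the partners were close to genes at large. The 7 measured partners of FANCI had a median of -0.11, between -0.39 for FANCC and 0.10 for FANCF, none at -0.5. The 4 partners of SEC11A, which include the other signal peptidase subunits SPCS1, SPCS2 and SPCS3, ran from -0.11 to 0.21. The 5 other AP-3 genes ran from -0.26 to 0.53. Of the 4 partners of POLG, the helicase gene TWNK was the lowest at -0.51. The 3 partners below -0.5 were TWNK, PDE8B (-0.60), the paralogue of PDE8A, and VCAN (-1.20), the paralogue of ACAN.

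Genes between the listed ones, not on the list, were also low on line 2. MRPL46 and MRPS11, neighbouring genes of the mitochondrial ribosome that lie between NTRK3 and DET1, were at -0.88 and -0.87. MRPL46 read 9.71 on line 2 and 10.36 to 10.71 on the other arrays. MRPS11 read 10.71 on line 2 and 11.46 to 11.67 on the others. LINC00052, a long non-coding RNA gene, was at -0.49 on line 2 and lower on vector line 1 (-0.65). Its readings, 5.05 to 6.13, were near the dim end.

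The low run on line 2 did not start at SH3GL3. At the near end, the first listed genes SH3GL3 and ZSCAN2 were at -0.54 and -0.56, while just outside BNC1 was at 0.17, HDGFL3 at -0.27 and TM6SF1 at 0.07. At the far end, ARPIN and IDH2 were at -0.68 and -0.29, while outside SEMA4B was at 0.08, CIB1 at -0.59 and GDPGP1 at -0.21. The nearest 15 measured genes had a median of -0.27 before the segment and -0.33 after it on line 2. At or below -0.5 were 3 (20%) and 4 (26.7%) of the 15, against 8.58% of all genes. On the other arrays these medians lay between -0.12 and 0.12 before the segment. After it they lay between -0.20 (vector line 1) and 0.30 (MXD3 line 5), so other arrays also deviated there.

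Along the whole chromosome, deviations on line 2 were mostly above 0 in the nearer stretch and mostly below 0 in the farther one. This division was made after its values were seen, and carries no test. The running median over 11 genes on line 2 changed sign for the last time between THAP10 and NR2E3, and stayed at or below -0.13 from there to the end. The 232 measured genes up to THAP10 had a median deviation of 0.20, with 48 of them below 0. Of the 12134 genes off the list, 6127 were below 0 on line 2. The 80 genes from NR2E3 to BNC1 had a median of -0.37, with 70 below 0, and the 39 genes after the segment -0.24, with 32 below 0. The listed segment thus lay within a low run of 150 genes (median -0.38, 130 below 0) and had the lowest median in it. It was listed for such deviations, so this rank is a description only. On the other 7 arrays the medians of these stretches lay between -0.09 and 0.19.

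**Figure D4:**
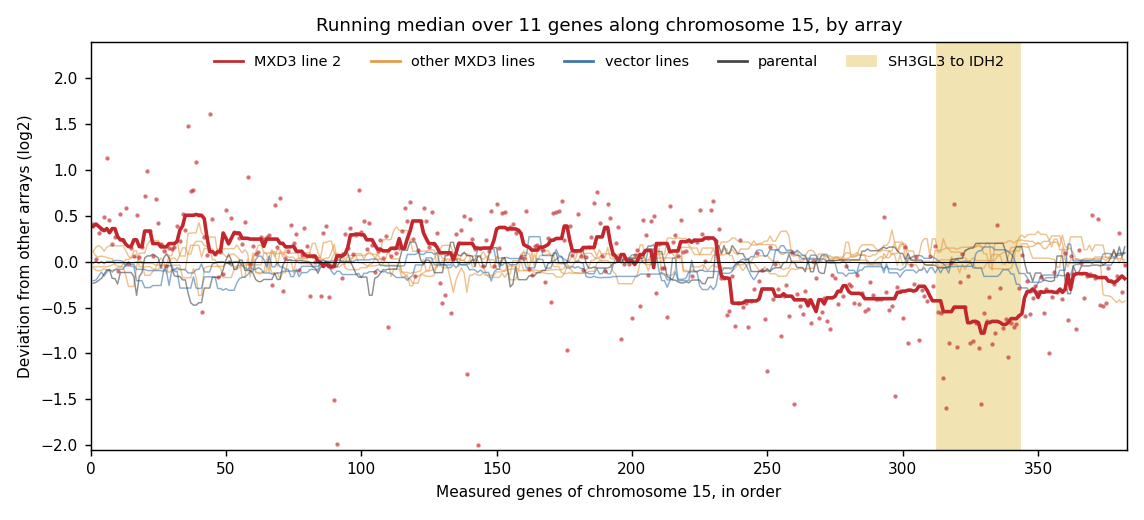
Running median over 11 genes of the deviation along the 382 measured genes of chromosome 15, in gene order, for the 8 arrays (lines), with the single genes of MXD3 line 2 as dots (values beyond 2 in size are drawn at 2) and the segment from SH3GL3 to IDH2 shaded. The line of MXD3 line 2 lies above 0 over most of the first 232 genes, stays below 0 after them and has its lowest values in the shaded segment.

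Counted outwards in blocks of 31 measured genes, the number in the segment, line 2 had a median of -0.66 in the segment and -0.36 in the block before it (TSPAN3 to BNC1). It had -0.37 in the next block (CCDC33 to RCN2), -0.15 in the one from CLN6 to STRA6, and 0.08 to 0.28 in every block before that. After the segment it was -0.30 from SEMA4B to ASB7. The last 8 genes, ALDH1A3 to TARS3, had -0.18 on line 2 and -0.41 on MXD3 line 4. Medians of 23 whole chromosomes on line 2, each over 137 to 1239 genes, ran from -0.12 to 0.17, with chromosome 15 at 0.06. Medians over so many genes can hide runs such as this one. Blocks of 31 genes were not taken on other chromosomes, so whether line 2 has similar runs there was not examined.

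In the comparison of the MXD3 lines with the vector and parental lines, no listed gene passed limma's test adjusted over all 12162 genes, and neither did any other gene. At an unadjusted p under 0.05 there were 0 of the 28, against 6.13% of all genes higher and 5.57% lower (11.7% together). Means were lower in the MXD3 lines for 16 of the 28 genes, where 49.5% of all genes were lower, and higher for 12, where 50.5% were. The median log2 difference of the 28 was -0.07, against 0.0037 over all genes. Without MXD3 line 2 it was 0.08, with 12 of 28 lower. Groups did not overlap for 0 of the 28, against 3.84% of all genes higher and 4.14% lower (7.98% together).

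The 3 genes with the smallest p were AKAP13, ANPEP and POLG. AKAP13 averaged 7.09 ± 0.17 (SD, n = 5) over lines carrying the insert, against 6.61 ± 0.60 (SD, n = 3) over vector and parental arrays. The log2 difference of AKAP13 was 0.48 ± 0.24 (SE, adjusted p = 0.463, limma). Its vector lines read 6.99 and 6.92 and its parental array 5.91, where the further probe was also low, at -1.17, so 1 control array set most of the gap. ANPEP differed by -0.60 ± 0.32 (SE, adjusted p = 0.487, limma) and POLG by -0.39 ± 0.21 (SE, adjusted p = 0.494, limma). Without MXD3 line 2 these 2 differences were -0.53 and -0.25.

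Against the vector lines alone, again no listed gene and no other gene passed in limma's test. At an unadjusted p under 0.05 there were 0 of the 28, against 3.83% of all genes higher and 3.91% lower (7.75% together), and the groups overlapped in all 28, where 6.59% of all genes were separated upwards and 6.62% downwards (13.2% together). The median log2 difference was -0.11, with 16 of 28 lower (49.4% of all genes) and 12 higher (50.6%), and 0.03 without MXD3 line 2. This comparison shares its MXD3 and vector arrays with the one above. The genes with the smallest p were ZNF592 (-0.41 ± 0.22 SE, adjusted p = 0.69, limma), KIF7 (-0.35 ± 0.26, adjusted p = 0.772) and SLC28A1 (0.30 ± 0.23, adjusted p = 0.778).

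The size of the shift on line 2 depended on the background correction. With quantile normalization of the uncorrected intensities the median deviation was -0.40 and 10 of the 28 genes lay at or below -0.5, against 3.13% of all genes at that setting.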

How the data were processed

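RNA of 8 samples (5 MXD3 lines, 2 vector lines, 1 parental) was read on 1 Illumina bead array each. The deposited non-normalized table holds a linear intensity for each of 22184 probes, with no background subtracted (lowest value 88.4 to 118 per array), and a deposited detection p-value beside each. The submitters' processing notes name BeadStudio without a version. The authors also deposited a series matrix, whose intensity is a straight line of the first in each array (residuals up to 0.0121). They share a mean of 1363, with medians of 87.5 to 98.7 and 2996 to 3304 values below 0 per array, so a constant was subtracted and 1 factor applied. The sources used here do not say how these were set.

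Intensities were corrected and quantile-normalized with neqc (limma 3.58.1, R 4.3.3, offset 16, negative controls inferred from detection p-values) and put on the log2 scale. Probes with a detection p-value below 0.05 on at least 2 arrays were kept, and the probe with the highest mean stood for its gene. Of the probes, 19715 named 1 gene, 0 several and 2469 none. Gene names came from the platform annotation, checked by Entrez ID against RefSeq (20 probes not found). Arrays correlated at r = 0.969 to 0.987 across genes, and in the 28 pairs the SD of the log2 difference was at least 0.395, so none was a copy. The number of arrays limits the precision.

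Comparisons between groups used limma (lmFit, eBayes). Its p-values are two-sided and were adjusted by Benjamini-Hochberg over 12162 genes and a threshold of 0.05. The vector and parental arrays formed 1 control group in the first comparison and separate groups in the second. The labels do not say that the lines were grown separately, so a p-value reflects only how these samples vary, which may be technical. The listed genes, the partner and marker lists and the threshold of 0.5 were chosen with earlier results of these data known. The 14 genes given in every array had the largest deviations below 0 on the array with the largest median shift, beside the 3 smallest p per comparison and the 3 nearest neighbours on each side. The fit and the deviation were tested on simulated data. Alternatives covered the normalization, the source table, the filter, the probe rule, the reference, the threshold, array weights, the line number as a block and leaving out each array.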

Additional observations from a re-analysis of the deposited data

Results flagged for a closer look

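Among the 5 MXD3 lines, a value stands far from the rest when its gap to the nearest other line takes up most of the range of the group (Dixon's 95% limit). Chance alone marks about 5% of groups. Of the 28 measured genes 5 were marked, each for MXD3 line 2, along with the median deviation of the 28. Over all 12162 genes the same limit marked 5.72% for any MXD3 line, and 0.608% for a low value on line 2. That median was -0.66 on line 2, against 0.00 to 0.20 on the other MXD3 lines.

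WDR73 read 6.95 on line 2 and 8.16 to 8.29 on the other MXD3 lines, and NMB read 5.86 against 7.30 to 7.80. SEC11A read 11.49 on line 2 against 12.31 to 12.48, FANCI 9.12 against 9.87 to 10.14 and PEX11A 8.15 against 8.68 to 8.81. These genes were listed for shifts of single lines, so the marks are a description of the same values.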

How the results depend on the processing

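The median deviation of the listed genes on MXD3 line 2 lay between -0.72 (series matrix values) and -0.40 (uncorrected intensities) over all alternatives, and between -0.68 and -0.64 when any other array was left out. On the other 7 arrays no alternative moved the median by as much as the spread between replicates (0.311). That spread includes line 2, whose shift widens it, so it is a loose limit. On MXD3 line 4, for example, the median ran from 0.11 to 0.29. The count of genes at or below -0.5 on line 2, 19, was 10 with uncorrected intensities (3.13% of all genes) and 4 at a threshold of 1 (1.7% of all genes), and 15 to 21 under the other alternatives, 18 to 19 when 1 array was left out. The median log2 difference between MXD3 lines and all controls ran from -0.16 to 0.08 with 1 array left out, and against the vector lines from -0.15 to 0.03, above 0 only without MXD3 line 2. The count of genes called over all genes was 0 to 1 with 1 array left out against all controls, and 0 against the vector lines. The 1 gene, MAL2 (-1.83 ± 0.18 SE, adjusted p = 0.0413, limma, below all controls in 4 of 4 MXD3 lines), appeared without MXD3 line 1 and was named after its value was seen. Without vector line 1, 3 listed genes had an unadjusted p under 0.05 in each comparison, against 13.9% of all genes with all controls and 8.55% with the vector line, where a lone vector array is assumed to vary like the other groups.

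MXD3 and vector lines share the numbers 1 and 2, which the labels tie to nothing. Deviations of same-numbered lines correlated at -0.309 and -0.179 across genes. With the line number as a replicate block, only the MXD3 and vector lines numbered 1 and 2 bear on the difference. The other arrays each stand alone in their block, so both comparisons become the same fit with little power. In that limma fit 0 genes were called, and 1 listed gene had an unadjusted p under 0.05, against 2.39% of all genes.

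Dim probes limit what can be seen: 8 of the 36 genes with a probe were detected on at most 1 array.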
